A study of Rattus norvegicus with 12 samples.

Results

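Circular DNA of rat skin was compared between 4 fractions (5 Gy x4) and 2 fractions (5 Gy x2) of electron beam radiation. The 8 libraries of these groups, 4 each, were taken by their labelled treatment from the 12 libraries of the series. All came from wild-type SD rats whose back skin received 5 Gy each week, and skin was sampled on day 7 after the last fraction. The 4 remaining libraries are from untreated skin and serve here as background values. Because fractions were weekly, 5 Gy x4 differs from 5 Gy x2 in total dose and in the time since the first fraction, and these cannot be told apart. Nothing in the labels ties a library to an animal. The p-values therefore speak only of the spread from library to library, some of which may be technical. The libraries hold DNA, so the labelled tissue could not be checked against marker transcripts.

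Extrachromosomal circular DNA (eccDNA) arises when a piece of chromosomal DNA is cut out and its ends are joined, and in most tissues the circles are short, with lengths that follow the wrapping of DNA around nucleosomes. Ionising radiation breaks DNA, and joining of broken ends is one of the routes by which circles can form. Much larger circles, listed apart as ecDNA, can carry whole genes and are best known from tumours. In Circle-seq linear DNA is digested with exonuclease and the remaining circles are sequenced. A circle is recognised by reads that span its junction or by read pairs facing outwards, which are called supporting reads here. A circle was taken as present in a library with 1 or more supporting reads.

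Extrachromosomal circles were more numerous in the 5 Gy x4 libraries than in the 5 Gy x2 libraries on average, but the ranges overlapped broadly. In 5 Gy x2, replicates 1 to 4 listed 19006, 28757, 27443 and 6326 eccDNA. In 5 Gy x4 the numbers were 22094, 44712, 46163 and 20124. Replicates 2 and 3 of 5 Gy x4 lay above all libraries of 5 Gy x2, while replicates 1 and 4 lay inside its range. The means were 20383 ± 10319 and 33273 ± 14082 (SD, n = 4), a 1.63-fold difference with an exact 97.1% interval of 0.700 to 7.30-fold (two-sided exact permutation test, p = 0.229, adjusted p = 0.457 over 4 measures of number). The interval runs from the lowest library of 5 Gy x4 over the highest of 5 Gy x2 to the reverse, and 97.1% is the level that 4 libraries against 4 give. Untreated skin libraries listed 7058 ± 3360. The 5 Gy x2 replicate 4 library was the smallest of the 8, and without it the fold was 1.33 (exact p = 0.457).

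Supporting reads differed between libraries as much as the circles did. Reads on eccDNA averaged 206423 ± 161296 in 5 Gy x2 and 251941 ± 80038 in 5 Gy x4 (SD, n = 4), 1.22-fold with an interval of 0.456 to 6.31 (exact p = 0.571). The number of circles that each library would be expected to show at 51249 reads, the total of the smallest library, was 13893, 21405, 18774 and 6326 in 5 Gy x2 and 16380, 24081, 26315 and 15026 in 5 Gy x4. The fold at equal reads was 1.35, with an interval of 0.702 to 4.16 (exact p = 0.257). Per supporting read the fold was 1.02 (exact p = 1), and per unit of mean depth over the mitochondrial genome, an abundant natural circle, it was 1.33 (exact p = 0.543). Total sequencing depth is not given in the sources used here, so depth could not be checked directly. Circles per supporting read are the inverse of mean reads per circle, so that fold cannot tell depth from number. Reads carry no molecular identifiers, so a read is not an independent molecule.

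**Figure D1:**
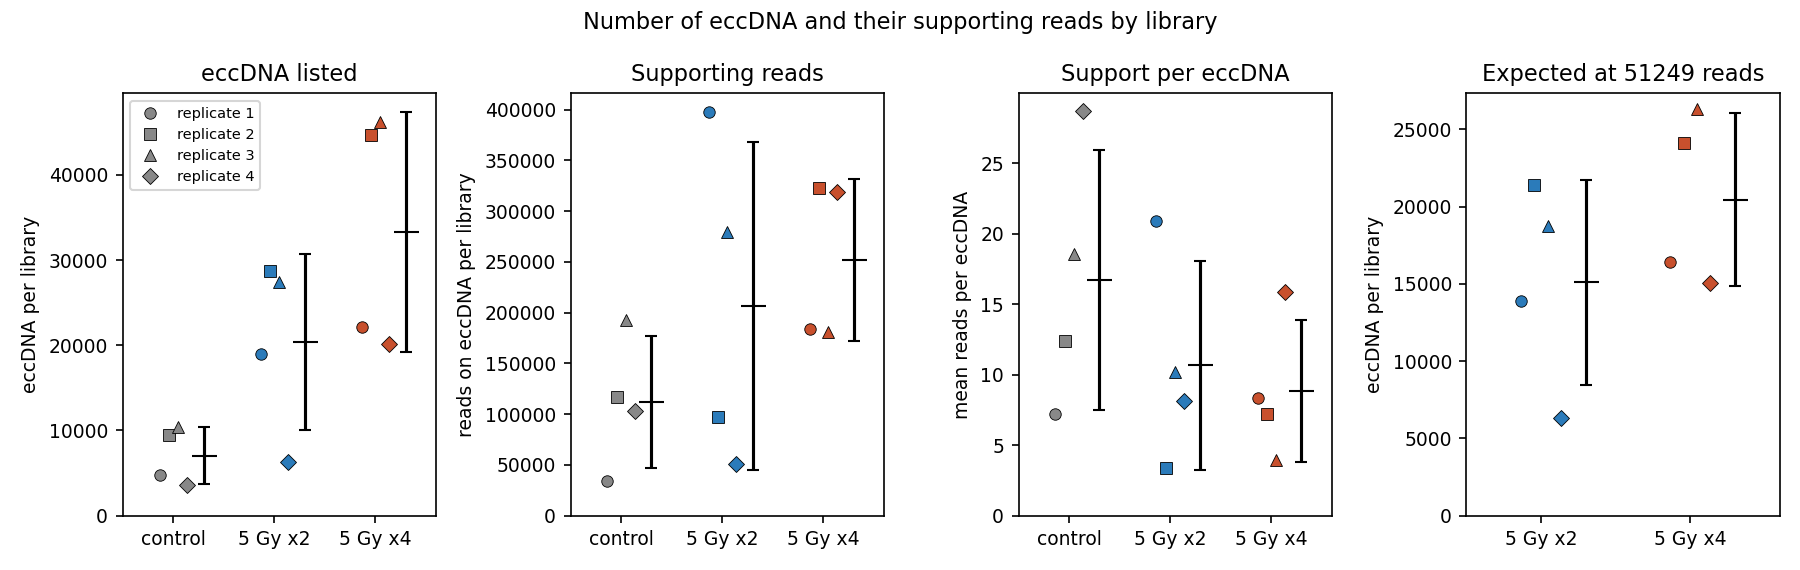
Number of eccDNA, supporting reads on eccDNA, mean reads per eccDNA and the number expected at 51249 reads, for each library (marker shape gives the replicate number) with the mean and SD of the 4 libraries of a group beside the points. The 5 Gy x2 and 5 Gy x4 points overlap in all 4 panels, and 5 Gy x2 replicate 4 is the lowest irradiated library in all panels but that of support per eccDNA.

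Support per circle differed between the doses by less than the spread of libraries. Mean reads per eccDNA were 20.9, 3.37, 10.2 and 8.10 in 5 Gy x2 and 8.34, 7.23, 3.92 and 15.9 in 5 Gy x4 (0.830-fold, interval 0.188 to 4.71, exact p = 0.657, adjusted p = 0.943 over 5 measures of support). Each group held a library of low support, replicate 2 of 5 Gy x2 and replicate 3 of 5 Gy x4, in which 63.5% and 52.1% of circles had at most 2 reads. In the other 6 libraries that share ran from 11.8% to 33.1%. The median was 2 reads per circle in both low-support libraries and 4 to 13 elsewhere. The best supported 1% of circles held 16.6% ± 4.87 of eccDNA reads in 5 Gy x2 and 12.8% ± 1.61 in 5 Gy x4 (SD, n = 4, exact p = 0.229), a difference of -3.79 percentage points that was -1.87 without 5 Gy x2 replicate 2.

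Support depended on length within nearly every library, and in the same pattern at both doses. Circles of 150 to 250 bp had a median of 36, 2, 14 and 8 reads in 5 Gy x2 and 10, 9, 3 and 23 in 5 Gy x4. Circles of 330 to 420 bp had a median of 11, 2, 6 and 4 reads in 5 Gy x2 and 4, 4, 2 and 9 in 5 Gy x4. The shorter class thus had the higher median in 7 of the 8 libraries, 5 Gy x2 replicate 2 being tied. Circles of 10 kb or more had medians of 8 to 51 reads in 5 Gy x2 and 11 to 67 in 5 Gy x4. Among circles with 20 or more reads, those of 330 to 420 bp made up 30.2% ± 11.3 in 5 Gy x2 and 40.9% ± 8.42 in 5 Gy x4, against 71.2% ± 3.03 and 74.2% ± 6.39 among circles with 1 read (SD, n = 4).

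The length profile was nearly the same at both doses. Circles of 330 to 420 bp, about what a pair of nucleosomes wraps, were 68.1%, 68.6%, 68.6% and 60.5% of eccDNA in 5 Gy x2 and 65.3%, 70.3%, 67.9% and 65.2% in 5 Gy x4. The difference was 0.713 percentage points with an interval of -3.42 to 9.79 (exact p = 0.83), and the upper end of that interval is set by 5 Gy x2 replicate 4 at 60.5%. Without that library the difference was -1.27. Classes here include their lower bound and not their upper one, and this class was chosen with the profile known. The most frequent length in this class was 358 or 359 bp in 7 of the 8 libraries and 371 bp in 5 Gy x2 replicate 4, and that of the class of 150 to 250 bp was 199 to 201 bp in all 8. The median length was 363, 367, 362 and 363 bp in 5 Gy x2. In 5 Gy x4 it was 360, 360, 362 and 363 bp, which is -2.5 bp by the means (interval -7 to 1, exact p = 0.20, adjusted p = 0.320 over 8 measures of length).

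**Figure D2:**
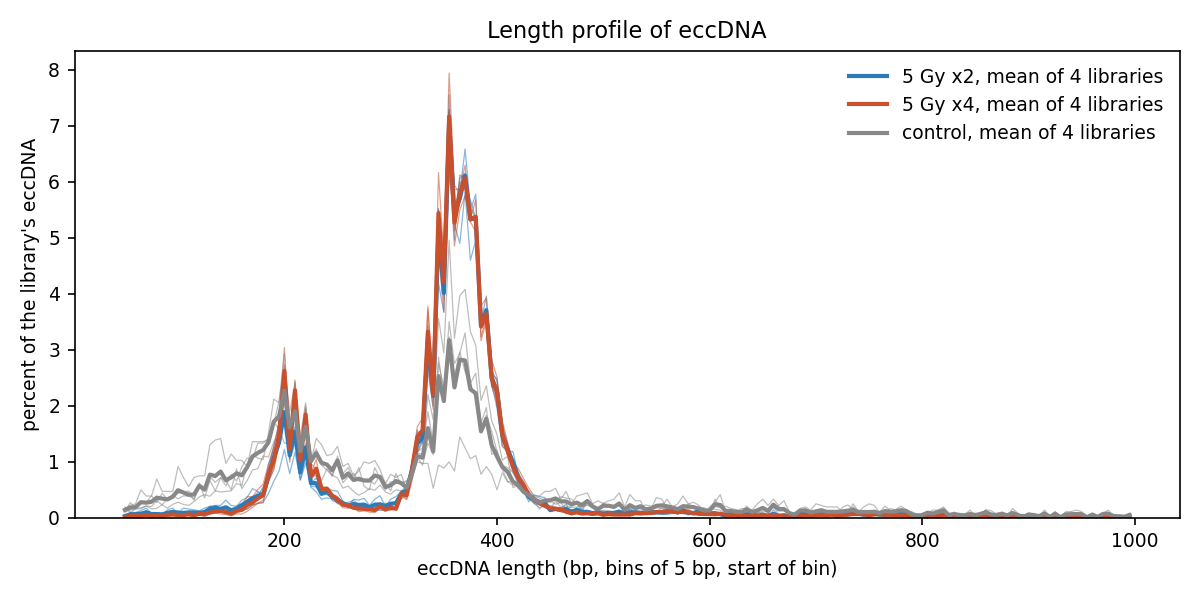
Percent of each library's eccDNA in 5 bp bins of length up to 1 kb, with thin lines for libraries and thick lines for group means (n = 4). The 5 Gy x2 and 5 Gy x4 means lie almost on each other, with peaks near 200 and 358 bp, while the untreated mean is lower at the second peak.

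Of the classes outside the main peak, that of 150 to 250 bp had a higher mean share at 5 Gy x4 and all the others a lower one, without passing the test. Circles of 150 to 250 bp, about what 1 nucleosome and its linker take up, were 13.6%, 10.4%, 17.1% and 16.0% in 5 Gy x2 and 18.3%, 15.6%, 14.8% and 19.1% in 5 Gy x4. The difference was 2.68 percentage points (interval -2.24 to 8.72, exact p = 0.20), and 2 of the 4 libraries of 5 Gy x4 exceeded all of 5 Gy x2. Without 5 Gy x2 replicate 2, the lowest of the 8, the difference was 1.39. In number this class averaged 2815 ± 1506 and 5418 ± 1709 circles per library (SD, n = 4), a 1.92-fold difference beside 1.63-fold for the class of 330 to 420 bp. Circles under 150 bp were 2.19% ± 0.772 in 5 Gy x2 and 1.33% ± 0.314 for 5 Gy x4 (exact p = 0.114), and numbered 393 ± 159 and 420 ± 147 per library. Circles of 250 to 330 bp were 6.01% ± 0.707 and 5.41% ± 0.447 (exact p = 0.20), and those of 420 to 1000 bp 8.89% ± 1.64 and 7.82% ± 0.792 (exact p = 0.314). Leaving out 1 library in turn gave differences of -1.13 to -0.511 percentage points under 150 bp, -0.887 to -0.315 at 250 to 330 bp and -1.75 to -0.540 at 420 to 1000 bp. The smallest of these came without 5 Gy x2 replicate 4 for both shorter classes and without 5 Gy x2 replicate 2 for the longer one.

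Long circles took a smaller mean share at 5 Gy x4, again with overlapping groups. Circles of 10 kb or more were 0.332%, 0.205%, 0.160% and 0.537% of eccDNA in 5 Gy x2 and 0.136%, 0.0984%, 0.119% and 0.219% in 5 Gy x4. All 5 Gy x4 libraries except replicate 4 lay below all of 5 Gy x2, and the difference was -0.166 percentage points (interval -0.439 to 0.0583, exact p = 0.0857, adjusted p = 0.320). Without 5 Gy x2 replicate 4, which had the highest share, it was -0.0893. Their number was similar, 63, 59, 44 and 34 per library in 5 Gy x2 and 30, 44, 55 and 44 in 5 Gy x4, so the share moves with the number of short circles. Circles of 1000 to 10000 bp were 1.89% ± 0.933 in 5 Gy x2 and 1.18% ± 0.162 in 5 Gy x4 (SD, n = 4, exact p = 0.286). The difference was -0.704 percentage points, and -0.343 without 5 Gy x2 replicate 4. All 5 Gy x4 libraries lay inside the range of 5 Gy x2, whose replicate 3 was the lowest of the 8, at 0.893%. These circles numbered 340 ± 219 and 390 ± 169 per library (SD, n = 4). Measured in reads, circles of 10 kb or more held 5.64% ± 3.72 of eccDNA reads in 5 Gy x2 and 3.29% ± 0.885 in 5 Gy x4. The mitochondrial genome, at 16311 bp, is part of these sums. Pooled over each group's libraries, it took 2.14% of all supporting reads in 5 Gy x2 and 2.11% in 5 Gy x4. It had 8149 reads in 5 Gy x2 replicate 2, where the class held 10.4% of eccDNA reads, the highest of the 8 libraries. The longest eccDNA of a library ranged from 93354 to 99725 bp over the 8 libraries.

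The position of circles relative to genes differed between the doses by less than the spread of libraries. By the deposited annotation, intergenic circles were 60.3% ± 1.10 of eccDNA in 5 Gy x2 and 59.8% ± 0.410 in 5 Gy x4 (SD, n = 4, interval of the difference -2.45 to 0.918 percentage points, exact p = 0.60). Intronic circles were 31.9% ± 0.675 and 32.2% ± 0.361 (interval -0.704 to 1.57, exact p = 0.629). Exonic circles were 3.85%, 4.92%, 4.64% and 4.71% in 5 Gy x2 and 4.78%, 5.02%, 5.03% and 4.49% in 5 Gy x4, a difference of 0.297 percentage points (interval -0.433 to 1.18, exact p = 0.343, adjusted p = 0.786 over 5 types). Replicate 1 of 5 Gy x2 was the lowest of the 8 for exons and the highest, at 61.8%, for intergenic circles, and without it the exonic difference was 0.0699. The 2 kb upstream of genes held 1.67% of circles in both groups (interval -0.136 to 0.214, exact p = 1) and the 2 kb downstream 1.56% and 1.53% (interval -0.225 to 0.155, exact p = 0.543). By number the folds of the 5 types ran from 1.60 upstream to 1.75 in exons, close to that of all eccDNA.

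Length was also compared within types. Among exonic circles, those of 330 to 420 bp were 70.2% ± 4.90 in 5 Gy x2 and 71.5% ± 1.45 in 5 Gy x4, and among intronic circles 65.3% ± 4.67 and 66.8% ± 2.75 (SD, n = 4). Restricted to circles of 330 to 420 bp, the intergenic share was 1.03 percentage points lower in 5 Gy x4 (a difference of -1.03, exact p = 0.0571) and the exonic share 0.367 higher (exact p = 0.114). Among circles of other lengths the intergenic difference was 0.504 (exact p = 0.40), the opposite sign, and the exonic difference 0.153 (exact p = 0.80). Exonic circles held 4.45%, 12.8%, 5.77% and 8.11% of eccDNA reads in 5 Gy x2 and 7.64%, 6.70%, 7.15% and 5.60% in 5 Gy x4. The mitochondrial genome is annotated as an exonic circle and is part of these sums. It took 4173, 8149, 3634 and 1968 reads in 5 Gy x2 and 6287, 5648, 4435 and 5028 in 5 Gy x4, the highest value being that of 5 Gy x2 replicate 2, which also had the highest exonic share of reads.

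**Figure D3:**
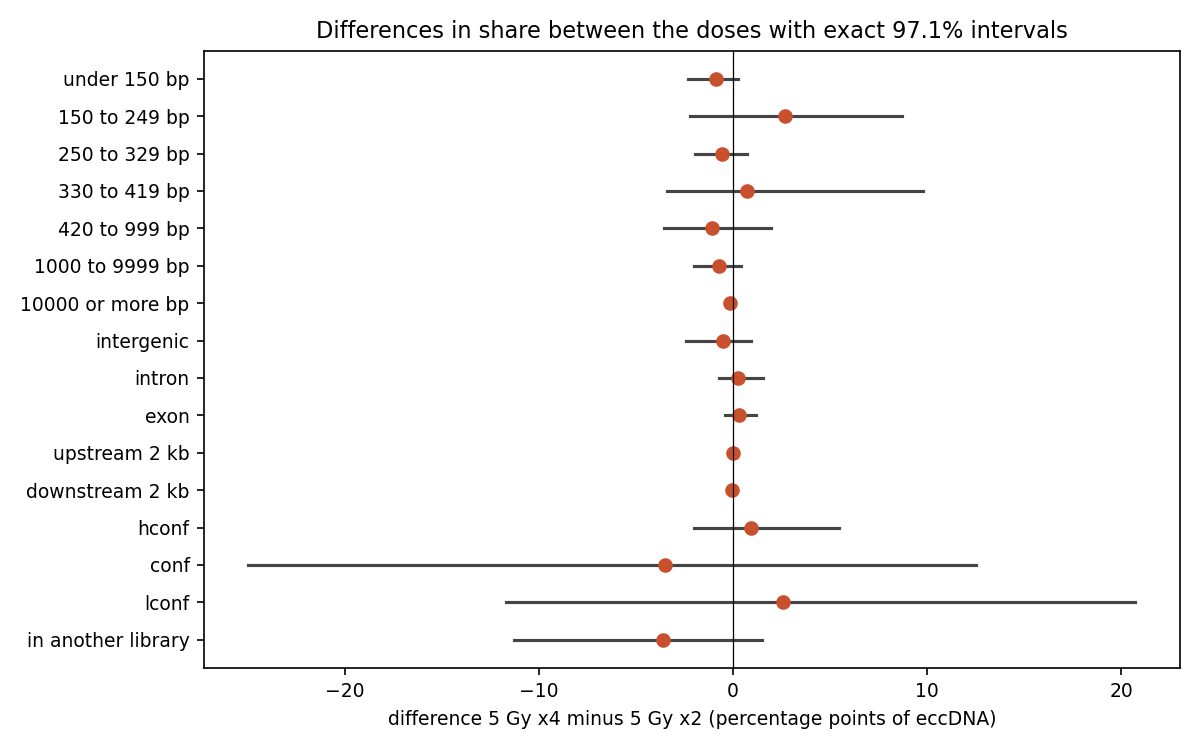
Difference in share (5 Gy x4 minus 5 Gy x2, percentage points of eccDNA) for length classes, types, quality labels and the share found in another library, with points for the difference in means and lines for the exact 97.1% interval over 4 libraries a group. All 16 intervals include 0, and those of conf and lconf are the widest.

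Each eccDNA carries 1 of 3 quality labels, hconf, conf or lconf, which the deposited table does not define. Among 219422 eccDNA called in 1 library, 219399 carried the label given by a simple rule on the table's coverage columns, found here by inspection. They were lconf where the column named coverage continuity, which is read here as the uncovered share of the circle and is not defined in the table, was at least 0.2, hconf where it was lower and the coverage ratios at the start and at the end were both at least 0.5, and conf otherwise. The label therefore reads local coverage, and the hconf share was higher among circles with more reads. Circles with few and with many reads also differed in length, so support and length are not separated here. In 5 Gy x2, hconf circles were 16.5% ± 0.937 of those with 1 read and 49.9% ± 1.47 of those with 20 or more. In 5 Gy x4 these shares were 17.3% ± 1.19 and 47.0% ± 2.59 (SD, n = 4).

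Call quality did not differ between the doses beyond the spread of libraries. Circles labelled hconf were 26.9%, 23.0%, 27.0% and 28.2% in 5 Gy x2 and 28.4%, 27.0%, 26.1% and 27.2% in 5 Gy x4, a difference of 0.935 percentage points (interval -2.02 to 5.45, exact p = 0.543). Circles labelled lconf were 64.0%, 46.7%, 66.4% and 62.9% in 5 Gy x2 and 63.8%, 64.4%, 54.7% and 67.5% in 5 Gy x4. The means were 60.0% ± 8.97 and 62.6% ± 5.5 (SD, n = 4, interval of the difference -11.7 to 20.7, exact p = 0.60). The conf share was 9.11%, 30.3%, 6.63% and 8.88% in 5 Gy x2 and 7.76%, 8.61%, 19.1% and 5.30% in 5 Gy x4 (interval -25.0 to 12.5, exact p = 0.571). It was highest in the library of lowest support of each group, replicate 2 and replicate 3, where the lconf share was the lowest of its group. The same libraries had the lowest median start coverage ratio, 0.532 and 0.810, against 0.998 to 1 in the other 6. By number, hconf circles averaged 5227 ± 2484 in 5 Gy x2 and 8973 ± 3585 in 5 Gy x4 (1.72-fold, interval 0.741 to 6.77, exact p = 0.20).

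The remaining quality columns gave the same picture. Coverage ratios, split reads, score and depth were taken from circles called in a single library, which were 82.9% to 94.1% of a library's eccDNA. The median number of split reads per circle was 6 ± 4.32 in 5 Gy x2 and 5.25 ± 3.40 for 5 Gy x4 (exact p = 0.80), and the median of the caller's circle score 232 ± 166 and 207 ± 133 (exact p = 0.80). The median of the mean depth over the circle was 6.0 ± 3.73 and 5.24 ± 2.68 (SD, n = 4, exact p = 0.743), against 15.1 ± 14.4 in untreated skin. A discordant read pair was seen for 6.53% ± 1.82 and 6.55% ± 0.422 of circles (interval -3.06 to 1.88, exact p = 1). After adjustment over 11 quality measures the lowest adjusted p was 1. Circles of 330 to 420 bp were lconf in 72.8% ± 15.3 and 73.5% ± 9.15 of cases, and circles of 150 to 250 bp in 26.5% ± 4.68 and 30.7% ± 2.00. Circles of 420 to 1000 bp were lconf in 54.3% ± 11.2 in 5 Gy x2 and 66.6% ± 4.12 in 5 Gy x4 (SD, n = 4). This was the widest gap of the 7 length classes, for which no test was run. The gap was nearly as wide for circles of 1000 to 10000 bp, at 42.0% ± 19.5 in 5 Gy x2 and 54.0% ± 15.6 in 5 Gy x4.

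Circles were spread over the chromosomes in nearly the same proportions. Counting 21 chromosomes without Y, the number of eccDNA in 5 Gy x4 was 1.56 to 1.70-fold that in 5 Gy x2 on each. None of 22 chromosome shares (0%) passed an adjusted p of 0.05 in the exact permutation test, and 1 (4.55%) had groups that did not overlap. This was chromosome 14, with 4.40%, 4.31%, 4.34% and 4.41% of eccDNA in 5 Gy x2 and 4.16%, 4.13%, 4.14% and 4.28% in 5 Gy x4. The difference of -0.185 percentage points had an interval of -0.282 to -0.0216 (exact p = 0.0286, the smallest this design allows, adjusted p = 0.629). Untreated libraries held 4.20% ± 0.334 there, a wider spread than either irradiated group.

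Chromosome 3 came next and leaned the other way. It held 6.44%, 6.56%, 6.70% and 6.07% of eccDNA in 5 Gy x2 and 7.02%, 6.65%, 6.81% and 6.81% for 5 Gy x4 (exact p = 0.0571, adjusted p = 0.629). Only replicate 2 of 5 Gy x4 lay inside the 5 Gy x2 range. Chromosome 17 held 3.69% ± 0.128 and 3.52% ± 0.0426 (SD, n = 4, exact p = 0.0857). Chromosome 1 held 10.2% ± 0.175 and 10.04% ± 0.128, and chromosome 12 held 2.00% ± 0.180 and 1.84% ± 0.0822 (exact p = 0.143 each). For chromosome 12 the difference was -0.165 percentage points over all eccDNA and 0.105 among those of 330 to 420 bp, so its sign depended on the lengths counted.

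**Figure D4:**
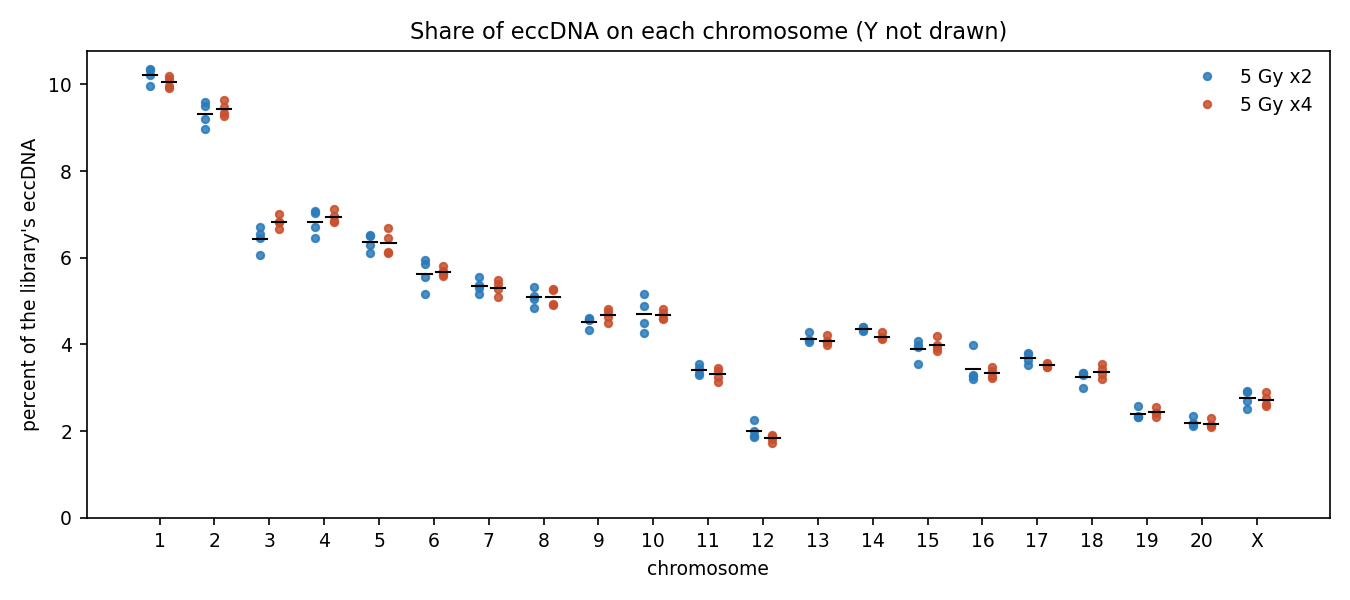
Percent of each library's eccDNA on each chromosome, with points for libraries of 5 Gy x2 (left, blue) and 5 Gy x4 (right, red) and black lines for means (n = 4). The points of the groups overlap on all chromosomes drawn except 14, and chromosome 3 shows the next clearest offset.

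In windows of 10 Mb along the genome build rn6, the doses had almost the same landscape. Of 286 windows with enough circles, 0 (0%) passed an adjusted p of 0.05 with edgeR's quasi-likelihood test. In raw circles 0 (0%) had all 4 libraries of 5 Gy x4 above all of 5 Gy x2. That count says little of shares, since 5 Gy x4 replicates 1 and 4 listed 22094 and 20124 eccDNA. Replicates 2 and 3 of 5 Gy x2 listed more, 28757 and 27443. At an unadjusted p under 0.05 there were 9 windows, 6 higher and 3 lower, and DESeq2 gave 0 adjusted and 7 unadjusted. Log2 fold changes, which compare a window's share of circles between the doses, ran from -0.31 to 0.35. Mean circles per window in the 2 groups had a correlation of 0.949 over windows, which share libraries and are not independent replicates.

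The windows of lowest p leaned on chromosomes 3, 18, 4 and 8. The window of chromosome 3 from 110000001 to 120000000 held 51, 99, 99 and 17 circles in 5 Gy x2 and 72, 169, 199 and 105 in 5 Gy x4 (log2 fold change 0.33, SE 0.11, edgeR adjusted p = 0.517). Chromosome 18 from 40000001 to 50000000 held 59, 114, 105 and 18 circles in 5 Gy x2 and 91, 210, 214 and 83 in 5 Gy x4 (log2 fold change 0.31, edgeR adjusted p = 0.517). The next window upstream, from 30000001 to 40000000, gave 0.32, and chromosome 8 from 100000001 to 110000000 gave 0.30. Chromosome 4 from 150000001 to 160000000 went the other way, with 95, 101, 110 and 30 circles in 5 Gy x2 and 61, 162, 154 and 68 in 5 Gy x4 (log2 fold change -0.31, edgeR adjusted p = 0.517). Windows on chromosome 17 from 40000001 (-0.25), chromosome 2 from 110000001 (-0.24), chromosome 1 from 170000001 (0.28), chromosome 4 from 20000001 (0.26) and chromosome 7 from 100000001 (0.22) complete the 10 of lowest p. Groups overlapped in raw circles in each of these 10 windows, which takes no account of library size. Overlap in share is not given here.

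More genes carried a circle at 5 Gy x4 on average, and this tracked the number of circles. Genes with an exonic or intronic circle numbered 4249, 5901, 5721 and 1942 in 5 Gy x2 and 5004, 7671, 7882 and 4529 in 5 Gy x4 (1.41-fold, interval 0.768 to 4.06, exact p = 0.229). At 2355 genic circles per library, the total of the smallest, the expected number of genes was 1952 ± 11.9 in 5 Gy x2 and 1963 ± 13.6 in 5 Gy x4 (SD, n = 4), a fold of 1.01 with an interval of 0.991 to 1.02 (exact p = 0.229). Pooled over libraries, 9994 genes carried a circle in 5 Gy x2 and 12446 in 5 Gy x4. Of these 7980 were shared, 79.8% of the 5 Gy x2 genes and 64.1% of the 5 Gy x4 genes. The 4466 genes found with a circle in 5 Gy x4 and not in 5 Gy x2 had a median of 1 circle over the 4 libraries. The highest number among them was 14, on Col22a1, a collagen gene of chromosome 7, with 3, 6, 3 and 2 circles, and untreated skin also had 3.

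Single genes carried too few circles for most to be tested. Of 14890 genes, 163 passed the filter on low counts and 0 of these (0%) passed an adjusted p of 0.05 with edgeR. At an unadjusted p under 0.05 there were 10 genes, 5 higher and 5 lower, DESeq2 gave 0 adjusted and 1 unadjusted, and the lowest edgeR adjusted p was 0.755. The median log2 fold change of the 163 genes was 0.03, since a fold change here refers to the share of genic circles that fell on a gene. In 4 genes (2.45%) all libraries of 5 Gy x4 lay above all of 5 Gy x2 in raw circles, and in 0 the reverse held. Raw circles take no account of library size, and the reverse is the harder to meet. Replicate 4 of 5 Gy x2 held 2443 gene and circle pairs, against 7527 in the smallest library of 5 Gy x4.

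**Figure D5:**
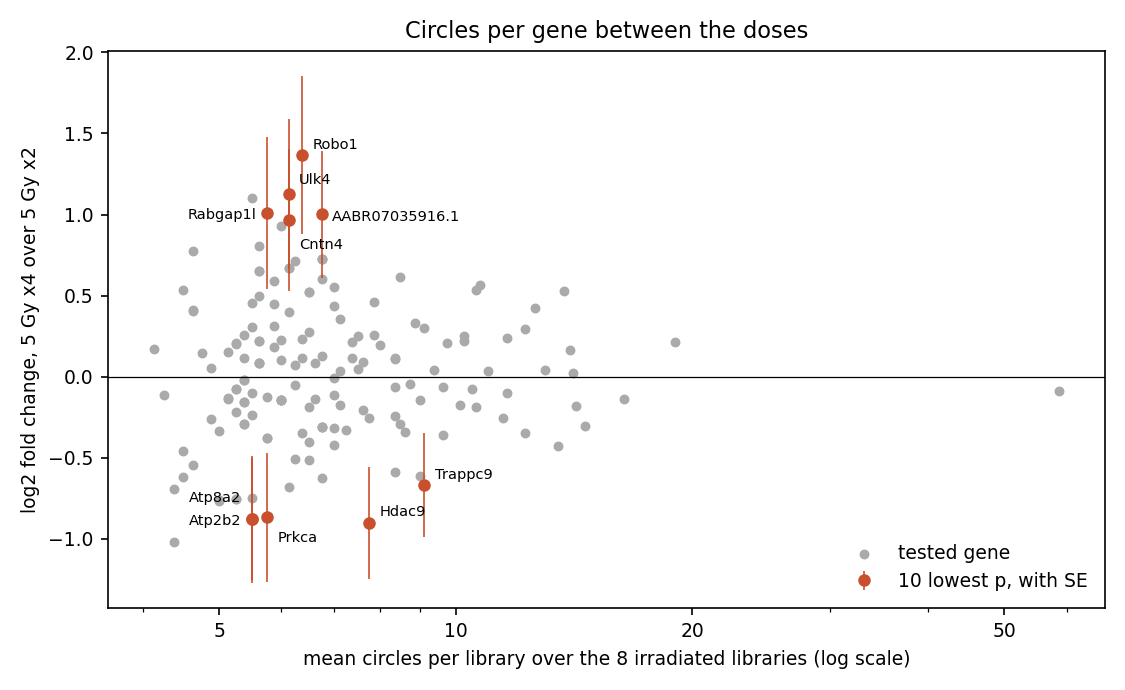
Log2 fold change in circles per gene (5 Gy x4 over 5 Gy x2, edgeR) against mean circles per library on a log axis, for 163 tested genes, with the 10 of lowest p named and their SE drawn. The genes scatter on both sides of 0, with the spread widest at low counts, and 0 pass after adjustment.

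Among the 10 genes of lowest p, 5 had higher values at 5 Gy x4. Robo1, which encodes a receptor for the Slit guidance cues, held 2, 7, 1 and 0 circles in 5 Gy x2 and 4, 16, 17 and 4 in 5 Gy x4 (log2 fold change 1.37, SE 0.49, edgeR adjusted p = 0.755). Its circles lay between 9645809 and 10124542 of chromosome 11. Ulk4, of a family of serine/threonine kinases, held 3, 5, 1 and 2 circles in 5 Gy x2 and 9, 7, 15 and 7 in 5 Gy x4 (chromosome 8, log2 fold change 1.13). Rabgap1l, which encodes a GTPase-activating protein for Rab proteins, held 6, 2, 2 and 1 in 5 Gy x2 and 7, 10, 10 and 8 in 5 Gy x4 (chromosome 13, log2 fold change 1.01). AABR07035916.1, on chromosome 12, held 2, 5, 5 and 1 in 5 Gy x2 and 6, 11, 14 and 10 in 5 Gy x4 (log2 fold change 1.00). In Ulk4, Rabgap1l and AABR07035916.1 the groups did not overlap in raw circles, while in Robo1 they did. Overlap in share, to which the log2 fold changes refer, is not given here. The fourth gene without overlap in raw circles was Pcca, which encodes a subunit of propionyl-CoA carboxylase (log2 fold change 0.54), named for that reason. Cntn4, which encodes the neural adhesion protein contactin 4, held 5, 2, 5 and 0 circles in 5 Gy x2 and 7, 10, 15 and 5 in 5 Gy x4 (chromosome 4, log2 fold change 0.97).

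The genes of lowest p with lower values at 5 Gy x4 overlapped between the groups in raw circles in all cases. Raw circles take no account of library size, and overlap in share is not given here. Hdac9, a class IIa histone deacetylase, held 8, 12, 12 and 2 circles in 5 Gy x2 and 2, 10, 13 and 3 in 5 Gy x4 (chromosome 6, log2 fold change -0.90, SE 0.35, edgeR adjusted p = 0.755). Atp8a2, a phospholipid flippase, held 5, 8, 9 and 2 in 5 Gy x2 and 4, 6, 7 and 3 in 5 Gy x4 (chromosome 15, log2 fold change -0.88). Atp2b2, a plasma membrane calcium pump, held 6, 7, 9 and 2 in 5 Gy x2 and 3, 9, 6 and 2 in 5 Gy x4 (chromosome 4, log2 fold change -0.88). Prkca, protein kinase C alpha, held 5, 7, 11 and 2 in 5 Gy x2 and 2, 7, 6 and 6 in 5 Gy x4 (chromosome 10, log2 fold change -0.87). Trappc9, a subunit of a vesicle tethering complex, held 8, 14, 11 and 4 in 5 Gy x2 and 5, 16, 12 and 3 in 5 Gy x4 (chromosome 7, log2 fold change -0.67). In these 5 genes the number of circles was nearly level while that of other genes was larger at 5 Gy x4, which is what a negative log2 fold change of share means here.

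The genes with most circles over the 8 libraries were not called either. Mycbp2, which encodes a large ubiquitin ligase, led with 470 circles, 47, 63, 64 and 17 in 5 Gy x2 and 58, 95, 87 and 39 in 5 Gy x4 (log2 fold change -0.09, SE 0.11, edgeR adjusted p = 0.936). The circles annotated to it spanned 87507985 to 93807934 of chromosome 15, which is longer than a usual gene body. Nrxn3, a presynaptic neurexin, held 9, 20, 23 and 2 in 5 Gy x2 and 11, 32, 44 and 11 in 5 Gy x4 (log2 fold change 0.21, SE 0.29). Astn2, a neuronal membrane protein, held 10, 13, 9 and 2 in 5 Gy x2 and 17, 21, 26 and 12 in 5 Gy x4 (log2 fold change 0.53, SE 0.29, edgeR adjusted p = 0.755). Apoo, of the mitochondrial inner membrane, held 6, 12, 15 and 17 in 5 Gy x2 and 17, 12, 15 and 14 in 5 Gy x4 (log2 fold change -0.43, SE 0.44). It was the only one of these 10 genes in which 5 Gy x2 replicate 4, the smallest library, had the highest number of its group. Others among them were Pard3b (log2 fold change -0.14), ENSRNOG00000006617 (-0.31), Cdh13 (-0.18), Luzp2 (0.02) and Gpc6 (0.04), and the sign of those of Mycbp2, Pard3b, ENSRNOG00000006617, Cdh13, Luzp2 and Gpc6, and of Nrxn3 and Apoo, turned under another setting or without 1 library.

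Genes of skin biology and of the radiation response carried few circles each. In the list of DNA damage and p53 response genes, 9 members carried a circle in 5 Gy x2 and 10 did so in 5 Gy x4, and 0 members were tested. Summed over the list, circles were 5, 8, 7 and 1 in 5 Gy x2 and 12, 14, 13 and 10 in 5 Gy x4, so that these sums did not overlap. As a share of gene and circle pairs the list held 0.0636% ± 0.0153 and 0.107% ± 0.0346 (SD, n = 4), and here the groups overlapped, with 0.0733% in 5 Gy x2 replicate 1 and 0.0729% in 5 Gy x4 replicate 3. Wrn, the helicase lost in Werner syndrome, gave 2, 1, 1 and 0 in 5 Gy x2 and 4, 3, 3 and 4 in 5 Gy x4, the most of the list. Rrm2b, a p53-inducible subunit of ribonucleotide reductase, gave 0 in all of 5 Gy x2 and 2, 1, 1 and 1 in 5 Gy x4. It is named after its values were seen, and untreated skin held 1 circle of it. In the list 4 members had circles in 5 Gy x4 and not 5 Gy x2, and 3 the reverse. Over all 14890 genes, 100 (0.672%) had all libraries of 5 Gy x4 above all of 5 Gy x2 in raw circles, which take no account of library size. Wrn and Rrm2b are 2 of these, among the list's 13 members with a listed circle. Atm, the kinase that signals double-strand breaks, gave 3 circles in 5 Gy x2 and 7 in 5 Gy x4. Tp53bp1, which binds chromatin at such breaks, also gave 3 and 7. At these counts 1 circle more or less in a library changes the order.

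The other lists followed the total more closely. DNA repair genes summed to 19.3 ± 8.73 circles per library in 5 Gy x2 and 31.3 ± 13.6 in 5 Gy x4 (SD, n = 4), 1.62-fold, beside 1.66-fold for all genic pairs. Prkdc, the catalytic subunit of the kinase of end joining, gave 13 and 10 circles over the 4 libraries, and Msh3, a mismatch repair gene, 11 and 10. Extracellular matrix and fibrosis genes summed to 31.8 ± 20.7 and 57.8 ± 23.4 (1.82-fold), led by Lama2, a laminin subunit, with 4, 11, 8 and 2 circles in 5 Gy x2 and 3, 11, 20 and 8 in 5 Gy x4. Ltbp1 and Tgfbr3, both of the TGF-beta pathway, gave 8 and 10 circles in 5 Gy x2 and 17 and 15 in 5 Gy x4. Epidermal keratinocyte genes summed to 10 ± 6.38 and 12.8 ± 3.77 (1.28-fold), which is 0.140% ± 0.0573 and 0.106% ± 0.0258 of gene and circle pairs (SD, n = 4). Of the 3 members with most circles, Grhl2 and Tp63, transcription factors of the epidermis, gave 3 circles each in 5 Gy x2 and 8 and 7 in 5 Gy x4, and the basal keratin gene Krt5 gave 2 and 7. The rest of the list went the other way, with 32 circles in 5 Gy x2 and 29 for 5 Gy x4.

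Hair follicle and sebaceous gland genes summed to 18.3 ± 12.1 circles in 5 Gy x2 and 35.3 ± 9.18 in 5 Gy x4 (SD, n = 4, 1.93-fold). Runx1 gave 10 and 24 circles, Gli3, a transcription factor of Hedgehog signalling, 10 and 22, and Tcf7l1, of Wnt signalling, 7 and 17. Oncogene and growth factor receptor genes summed to 23 ± 15.8 and 47 ± 21.8 (2.04-fold), and 19 of them carried a circle in 5 Gy x2 and 26 in 5 Gy x4. The receptor kinases Alk, Erbb4 and Igf1r led with 20, 19 and 6 circles in 5 Gy x2 and 28, 27 and 19 in 5 Gy x4. Inflammation genes summed to 8.5 ± 5.07 and 13.8 ± 9.22 (1.62-fold), with Nfkb1 (7 and 9) and Il1rap (3 and 8) among them. Endothelium and pericyte genes summed to 11 ± 7.70 and 19 ± 10.2 (1.73-fold), led by Nrp1 (9 and 12), Flt1 (6 and 11) and Nrp2 (7 and 10).

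Skeletal muscle genes summed to 33.5 ± 18.5 and 43.3 ± 20.7 circles (SD, n = 4, 1.29-fold), led by Dmd, the dystrophin gene, with 44 in 5 Gy x2 and 54 in 5 Gy x4, Ryr3 with 25 and 31, and Sgcd with 19 and 24. All 3 were tested and had a median log2 fold change of -0.32, beside 0.03 for all tested genes. Long neuronal genes, listed as a yardstick for gene length, summed to 126 ± 63.6 and 225 ± 94.6 (1.78-fold). Of their 26 members with a circle 15 were tested, 11 above and 4 below 0, with a median log2 fold change of 0.17. Lama2 and Alk were the only other tested members, with values of 0.11 and -0.15. None of the 20 tested members of the lists was called, as none of all 163 genes was (0%). The lists were chosen with earlier results of these data known and were not tested as sets.

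Of 14890 genes, those with a circle in every library of one dose and in none of the other numbered 56 for 5 Gy x4 and 1 for 5 Gy x2. The latter was Rsbn1l, on chromosome 4, with 2, 3, 1 and 1 circles in 5 Gy x2. The requirement is harder to meet in 5 Gy x2, whose replicate 4 held 2443 gene and circle pairs against 7527 in the smallest library of 5 Gy x4. Without replicate 4 of each group the numbers were 183 and 36. The libraries kept were still unequal, with 6818, 11026 and 10377 pairs in 5 Gy x2 and 8532, 17084 and 17839 in 5 Gy x4. The part of library size in these numbers was not tested. The 56 genes carried 4 to 14 circles each. Besides Col22a1 and Rrm2b they include Vrk2, a kinase gene of chromosome 14, with 1, 6, 4 and 1 circles, Rreb1, a transcription factor gene of chromosome 17, with 1, 4, 4 and 2, and Col3a1, the gene of a fibrillar collagen of skin, with 1 in each library. These were named after their values were seen. Untreated skin also held circles of them, 2 on Rreb1, 3 on Col22a1 and 1 each on Vrk2, Col3a1 and Rrm2b. Some others of the 56, such as Fem1c, had 0 there.

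Single circles were rarely shared, within or between the doses. The 4 libraries of 5 Gy x2 held 79722 entries of the list and those of 5 Gy x4 130513, and 3596 were found in both, 4.51% of the former and 2.76% of the latter. In single libraries 11.0%, 7.09%, 7.61% and 17.1% of the 5 Gy x2 circles and 7.82%, 5.86%, 6.15% and 8.59% of the 5 Gy x4 circles occurred in at least 1 other of the 12 libraries (interval of the difference -11.3 to 1.505 percentage points, exact p = 0.20, adjusted p = 0.30 over 3 measures of sharing). The difference was -3.61 percentage points, and -1.47 without 5 Gy x2 replicate 4. The highest share was in the smallest library of each group. In number, circles found elsewhere were 1827 ± 496 per library of 5 Gy x2 and 2230 ± 585 of 5 Gy x4 (SD, n = 4, 1.22-fold), whereas circles found in 1 library were 18556 ± 9880 and 31044 ± 13501 (1.67-fold). When a reciprocal overlap of 50% counted as shared, the means were 12.5% ± 4.99 and 8.66% ± 1.53.

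Circles found at both doses differed in kind from those found at one, as a description of pooled entries. The shared entries had a median length of 395 bp and 42.3% were of 330 to 420 bp, against 360 bp and 69.2% for the 126917 entries found in 5 Gy x4 and not 5 Gy x2. Circles of 1 kb or more were 9.59% of the shared entries, 0.789% of those of 5 Gy x4 alone and 1.13% of those of 5 Gy x2 alone. Of the shared entries 42.6% were hconf and 33.0% also occurred in untreated skin. Of the entries in 5 Gy x4 and not 5 Gy x2, 26.1% were hconf and 1.12% occurred in untreated skin. The median support, summed over the irradiated libraries, was 19 reads for shared entries and 4 for the others. A shared entry has reads at both doses by definition, which raises its sum. These sums therefore cannot tell whether shared entries were better supported within a library.

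A small set of circles recurred at both doses. Of all entries 19 were found in all 8 irradiated libraries, the best supported being the mitochondrial genome, with 17924 reads in 5 Gy x2 and 21398 in 5 Gy x4. These were 2.14% and 2.11% of each group's supporting reads. A circle of 385 bp at 32684 to 33068 of chromosome 3 (intergenic) had 109, 486, 230 and 262 reads in 5 Gy x2 and 131, 459, 208 and 320 in 5 Gy x4. A circle of 61 bp at 4696251 to 4696311 of chromosome 18 (intergenic) had 192, 254, 377 and 103 reads in 5 Gy x2 and 212, 193, 374 and 222 in 5 Gy x4. A circle of 2925 bp in an intron of Tdrp, at 80743317 to 80746241 of chromosome 16, had 500, 396, 123 and 14 reads in 5 Gy x2 and 60, 232, 170 and 162 in 5 Gy x4. A circle of 2412 bp at 67234383 to 67236794 of chromosome 10 (intergenic) had 140, 30, 40 and 80 reads in 5 Gy x2 and 85, 111, 91 and 186 in 5 Gy x4. For all 5 the groups overlapped.

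Among the circles with most reads at a dose, 2 were found in 1 irradiated library each. In 5 Gy x2 the second most supported was a 391 bp circle at 41542 to 41932 of chromosome 3, with 11883 reads in replicate 1 and 0 in the other 7 irradiated libraries, though it was present in 3 untreated ones. In 5 Gy x4 a 343 bp circle at 116306813 to 116307155 of chromosome 7 had 1139 reads in replicate 2 and 0 elsewhere in the 8. A group of intergenic circles on chromosome 1 near 181 Mb was well supported at both doses. One of 1107 bp, at 180782889 to 180783995, had 1110, 195, 392 and 527 reads in 5 Gy x2 and 0, 336, 204 and 1175 in 5 Gy x4. Its neighbours at 181286479 to 181287216 (738 bp) and 181259667 to 181260401 (735 bp) were found in 3 and 2 of the 8 libraries. On chromosome X, overlapping circles at 352437 to 363434 (10998 bp) and 352417 to 369900 (17484 bp) were each found in 5 of the 8.

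Few circles were found in every library of one dose and none of the other. In all 4 libraries of 5 Gy x4 and none of 5 Gy x2 there were 5 entries, and in the reverse case 6. With at least 3 libraries in place of 4 the numbers were 57 and 41. The best supported of the 5 was a 1187 bp intergenic circle at 125561949 to 125563135 of chromosome 2, with 28, 98, 21 and 122 reads in 5 Gy x4, and it was also found in 1 untreated library. Another was exonic in Ccdc173 (chromosome 3, 56022938 to 56024090), with 21, 36, 20 and 51 reads, and 1 lay in an intron of Man2a1 (chromosome 9, 112304877 to 112305349), with 15, 23, 9 and 2 reads. Of the 6 in 5 Gy x2, 1 lay in an intron of Asph (chromosome 5, 22583109 to 22583753), with 141, 1, 15 and 14 reads, and 1 in an intron of Pde4b (chromosome 5, 122021782 to 122021981), with 32, 1, 3 and 6 reads. Those of Man2a1 and Asph were not listed in untreated libraries. The genome sequence of the build used was not used here, so no circle sequence is shown.

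The larger circles listed as ecDNA were equally many at both doses by the mean, with a wide interval. Libraries of 5 Gy x2 held 40, 50, 18 and 18 ecDNA and those of 5 Gy x4 22, 34, 41 and 29, with a mean of 31.5 in both groups (interval of the fold 0.440 to 2.28, exact p = 1). Pooled, 83 ecDNA were found in 5 Gy x2 and 81 in 5 Gy x4, of which 35 were shared and 4 were in all 8 libraries. There were 0 ecDNA in 3 or more libraries of one dose and none of the other. ecDNA held 1.43% ± 0.495 of supporting reads in 5 Gy x2 and 0.715% ± 0.559 in 5 Gy x4 (SD, n = 4), with overlapping groups.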

How the data were processed

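Circle-seq libraries of rat skin were compared, 4 of 5 Gy x4 with 4 of 5 Gy x2, with 4 untreated libraries as background. Columns, exonuclease and a transposase kit were used to make the libraries, per the labels. The authors deposited, per library, counts of supporting reads for each circle of 1 common list, with no normalization, and 2 tables annotating the 228510 entries. Pooled support in those tables is in counts too, per the file headers. BWA, Picard, bedtools and the build rn6 are named in the submitters' processing notes. For the circle caller, the merging of calls and the quality labels a description is not given in the sources used here. In 227 entries the library counts did not add up to the deposited total. Starts were converted to count from 1.

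Library measures were computed in Python 3.11.15 (numpy 2.4.6, pandas 2.3.3, scipy 1.17.1) and compared by a two-sided exact permutation test over the 70 ways of dividing 8 libraries, with Benjamini-Hochberg adjustment within each family. The smallest p is 0.0286, so in no family could a measure pass alone. Numbers at equal reads or equal genic circles are hypergeometric expectations without random draws. Circles per gene (exonic or intronic) and per 10 Mb window were tested with edgeR 4.0.16 (R 4.3.3, TMM, filterByExpr with a minimum count of 5 for genes and 10 for windows, quasi-likelihood F test), with DESeq2 1.42.0 as an alternative. SE was taken from the log2 fold change and its F value. Scripts were tested on simulated data. Of 14890 genes 1315 have no symbol in the deposited table, and 0 of these could be named through RefSeq. Supporting reads per library ran from 52159 to 404815.

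Named genes were those past the threshold or, as fewer than 5 passed, the 10 of lowest p, the 10 with most circles, and up to 3 of each list with most circles; also the 10 windows and 4 chromosomes of lowest p (a tie kept both), 5 circles in most libraries and 5 best supported per group. Some genes that this rule names are not reported here. Members, lists and length classes were chosen with earlier results of these data known. Libraries were not paired by replicate number. Deviations of same-numbered libraries had correlations of -0.329 to -0.0804 over 54 measures, and those of other pairs -0.432 to 0.593. The measures depend on each other, so these values cannot exclude a pairing. Alternatives were the minimum support, depth scalings, quality label, length class, normalization, filter, tool, all 12 libraries, a replicate block and leaving out each library.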

Additional observations from a re-analysis of the deposited data

Results flagged for a closer look

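Among 116 checks of a measure within a group of 4 libraries, 11 found the highest or lowest library set apart from the other 3. These 11 flags rest on the gap relative to the range of the 4, where chance alone flags about 1 in 20. Of them 4 concern 5 Gy x2 replicate 4, the library with fewest circles, whose share of 330 to 420 bp circles was 60.5% and whose shares of chromosomes 9, 16 and 18 were 4.33%, 3.98% and 3.00%. Another 5 concern 5 Gy x2 replicate 2, of low support per circle, with a chromosome 19 share of 2.58%, a conf share of 30.3%, a median start coverage ratio of 0.532, a median end coverage ratio of 0.715 and a median uncovered share of 0.186. The last 2 concern 5 Gy x4 replicate 3, also of low support, with a median start ratio of 0.810 and a median end ratio of 0.990. The part of depth or support in these values was not tested. The checks depend on each other, so the number of flags cannot be set against 1 in 20 as if they were separate. A small gap is flagged where the other libraries are equal, as for the median end ratio of 5 Gy x4, which was 1 in the rest.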

How the results depend on the processing

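No result passed an adjusted p of 0.05 under any setting run, over 34 library measures, 15 settings for genes and 14 for windows, the lowest adjusted p being 0.125, 0.377 and 0.189. With 4 libraries against 3 the exact test cannot go below 0.0571, so this says little of stability. The replicate block left 0 genes and 0 windows called (8 and 13 at unadjusted p under 0.05), gave an exact sign-flip p of 0.125, the smallest it allows, for the number of eccDNA, and turned Luzp2 to a log2 fold change of -0.015. Apart from leaving out libraries, 133 of 143 values of measures kept their direction. With at least 5 reads per circle the difference turned for the share of 330 to 420 bp (-0.0610 percentage points), intron (-0.212), upstream (-0.0138) and downstream (0.0504). Within 330 to 420 bp it turned for upstream (-0.00860), downstream (0.0211) and chromosome 12 (0.105), and among other lengths for intergenic (0.504) and intron (-0.530). Without the 2 libraries of lowest support, a setting chosen after seeing the data, the median uncovered share turned (-0.00226). Among genes, Mycbp2, Pard3b, ENSRNOG00000006617 and Cdh13 turned without a filter (0.29, 0.23, 0.069 and 0.19), the first 3 of them with at least 5 reads (0.054, 0.041 and 0.20), and Luzp2 and Gpc6 with library size alone (-0.073 and -0.058). The causes were not tested.

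Leaving out 1 library turned 21 of 272 values, in 14 measures. The ranges over these settings were 0.610 to 1.22-fold for mean and 0.543 to 1.18 for median reads per eccDNA, 0.976 to 1.77 for reads on eccDNA, and, in percentage points, -1.27 to 1.44 for 330 to 420 bp, -0.789 to 0.0126 for intergenic, -0.0815 to 0.426 for intron, -0.0359 to 0.0293 for upstream, -0.0751 to 0.00705 for downstream, -0.154 to 1.57 for hconf, -6.50 to 1.99 for conf, -1.84 to 5.21 for lconf, -6.59 to 11.5 for at most 2 reads and -1.97 to 0.216 for sharing within the group. The median uncovered share ran from -0.0119 to 0.0206. The genes that turned ran from -0.65 to 0.061 (Apoo), -0.45 to 0.010 (Cdh13), -0.074 to 0.18 (Gpc6), -0.15 to 0.22 (Luzp2), -0.13 to 0.0031 (Mycbp2), -0.0040 to 0.46 (Nrxn3) and -0.26 to 0.085 (Pard3b). The depth of single genes, at a median of few circles, limits what could be detected.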
